A study of Mus musculus with 20 samples.

Results

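The genes described are 9 enzymes and partners of DNA methylation and of Polycomb repression, namely Dnmt1, Uhrf1, Dnmt3a, Dnmt3b, Tet1, Tet2, Tet3, Ezh1 and Ezh2. They were chosen by symbol, and every probe set that the platform annotation gives to one of them was used, which came to 24 of the 45037 non-control probe sets of the array and to 9 of 18193 named genes. Values are deposited log2 probe set levels from 20 mouse arrays, 2 per group, of total RNA from bone marrow derived cells of C57BL/6 mice. Multipotent progenitors (MPP) and common dendritic cell progenitors (CDP) had been amplified in culture from bone marrow, and conventional (cDC) and plasmacytoid (pDC) dendritic cells had been differentiated from such amplified progenitors. In vivo CDP were isolated from bone marrow. A separate series held amplified CDP left untreated (0 h) or given TGF-β1 for 4, 8, 12 or 24 h. All groups share the strain, and no group is labelled with a transgene or deletion. A one-cycle kit was used to label 1 µg RNA of the cultured progenitors and of both dendritic cell types. A 3′ IVT kit served for the TGF-β1 series (250 ng) and for in vivo CDP (50 ng, extracted with a kit for small samples). Culture against isolation therefore cannot be told apart from kit, RNA amount and extraction, and hours with TGF-β1 cannot be told apart from hours in culture, for want of untreated cultures of the same length.

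DNMT1 copies the methyl mark of cytosine onto the new strand after DNA replication, and UHRF1 brings it to hemimethylated sites. DNMT3A and DNMT3B place new marks, and the TET enzymes oxidise 5-methylcytosine, a step towards its removal. EZH2 and EZH1 are the alternative catalytic subunits of Polycomb repressive complex 2 (PRC2), which methylates histone H3 and so marks repressed genes. EZH2 is known as the form of dividing cells and EZH1 as the form that persists in resting cells. In blood formation DNMT3A and TET2 are known as regulators of stem and progenitor cells.

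The 10 arrays of MPP, CDP, cDC, pDC and in vivo CDP shared a lowest value of 2.25, which 33.7% to 35.5% of their probe sets held, a floor that was absent from the 10 arrays of the TGF-β1 series. Levels were therefore compared only within each of these 2 parts, and a value of 5 served as the limit below which a level was treated as low. All 8 cDC markers lay above 5 on both cDC arrays, and 7 of 8 pDC markers on both pDC arrays, with Klk1 under 5. Of the pDC markers 6 were also above 5 on both cDC arrays, and of the cDC markers 3 on both pDC arrays. The pDC list summed to 97.4 to 99.0 for pDC and 62.2 to 63.9 for cDC. The MPP marker Kit read 11.31 and 10.89 in cDC against 9.74 and 9.68 in MPP. The B cell marker Ms4a1 read 7.80 and 5.38 in cDC. The part of other cells in these groups was not tested. In the TGF-β1 series, replicate 1 of 4, 12 and 24 h had low 5′ signal, with the 3′ Gapdh probe set 2.10 to 2.78 log2 units above the 5′ one, against 0.01 to 0.10 on the other 7 arrays. On the cell type arrays this gap was 0.98 and 0.48 for in vivo CDP and -0.21 to 0.30 for the rest. The 3′ actin probe set lay above the 5′ one by 1.91 and 2.04 for MPP and by 1.23 and 2.11 for CDP. This actin gap was 0.69 and 0.84 for cDC, 0.84 and 0.94 for pDC, and 1.39 and 1.09 for in vivo CDP. On the arrays of low 5′ signal it was 1.89 to 2.11. The part of these gaps in the differences between cell types was not tested. The labels do not call the replicates separate cultures or animals, and p-values thus measure a spread between arrays that may be technical. In such bulk RNA, fewer cells of a type and less RNA per cell cannot be told apart.

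The maintenance enzymes Dnmt1 and Uhrf1, together with Ezh2, had their highest means in MPP and CDP among the cultured cells, lower ones in cDC and the lowest in pDC. The Dnmt1 probe set with the highest mean, 1435122_x_at, read 10.88 and 11.23 on the MPP arrays and 10.73 and 11.19 on the CDP arrays, but 9.53 and 9.36 for cDC and 8.23 and 8.58 for pDC. MPP and CDP overlapped, and neither overlapped with cDC or pDC. Probe set 1447877_x_at repeated this order at lower values, from 9.13 and 9.26 in MPP to 6.27 and 6.61 in pDC. The remaining Dnmt1 probe set, 1422946_a_at, read 10.07 and 10.01 for CDP, 9.06 and 8.23 for cDC, and 7.91 and 8.34 for pDC, so that cDC and pDC overlapped there. Uhrf1 1415810_at read 9.78 and 10.48 for MPP, 10.31 and 10.82 for CDP, 9.52 and 8.45 for cDC, and 7.66 and 8.27 for pDC. Its cDC arrays lay wide apart, and neither reached the CDP arrays. Uhrf1 1415811_at was lower throughout, with 6.33 and 6.87 for MPP, 8.18 and 7.26 for CDP, 7.07 and 5.47 for cDC, and 5.29 and 5.47 for pDC. With this probe set MPP and cDC overlapped. The single Ezh2 probe set, 1416544_at, read 10.94 and 11.10 for MPP, 11.24 and 11.44 for CDP, 10.74 and 10.72 for cDC, and 9.91 and 10.19 for pDC, with no overlap between any of these 4 cell types.

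**Figure D1:**
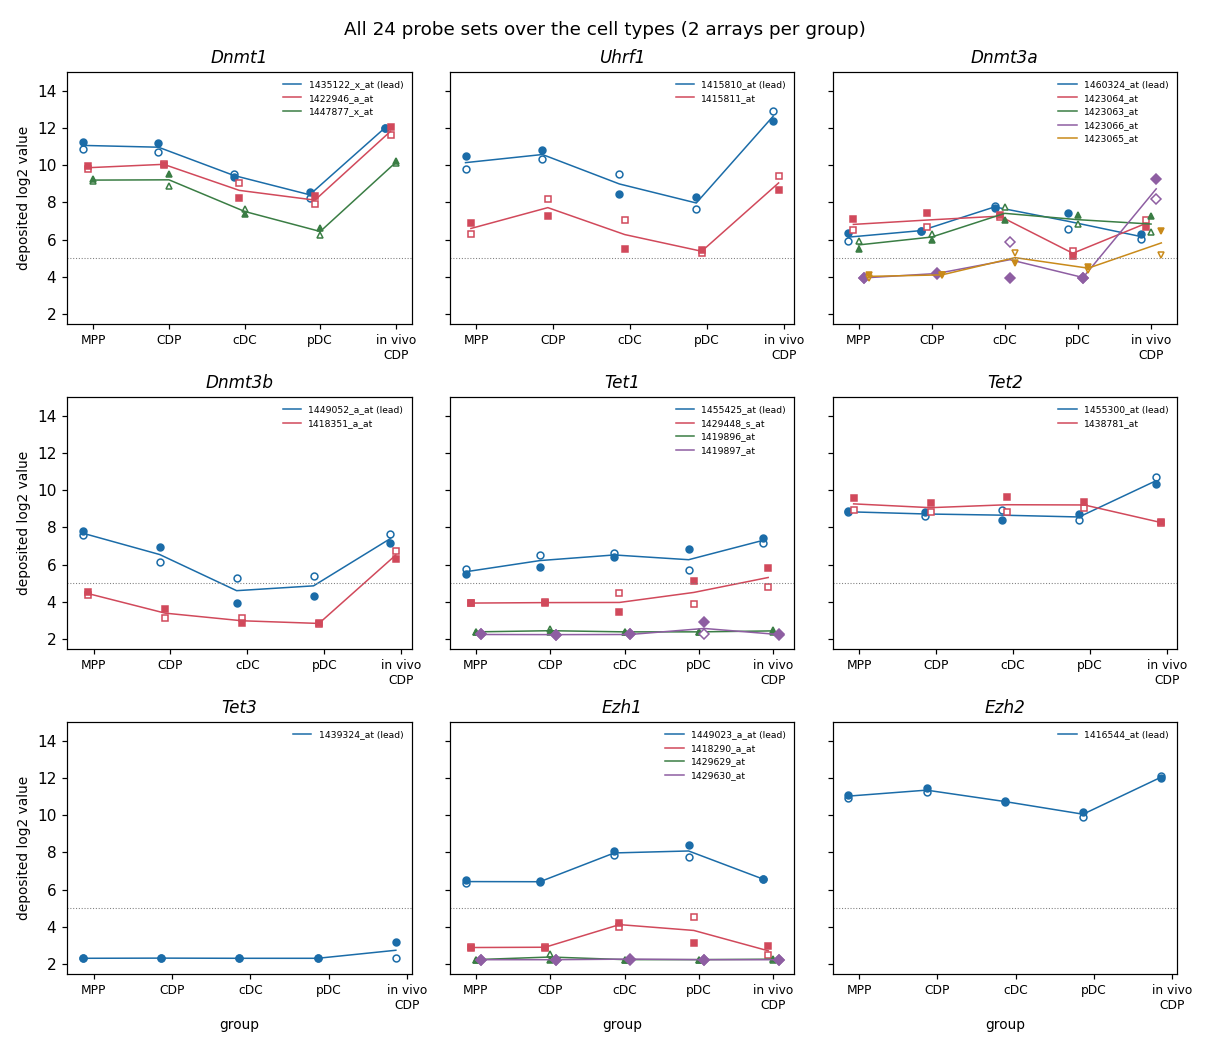
Deposited log2 value (y axis) of each of the 24 probe sets in MPP, CDP, cDC, pDC and in vivo CDP (x axis), 1 panel per gene, with replicate 1 as an open and replicate 2 as a filled point and lines through the group means. The dotted line marks 5; Dnmt1, Uhrf1 and Ezh2 are lowest in pDC, and the main Ezh1 probe set lies between 7.77 and 8.39 in cDC and pDC against 6.36 to 6.58 in the other groups.

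Promoter windows of the members were searched because these genes moved together. Dnmt1 lies on mouse chromosome 9 (20907206 to 20959888, minus strand), Uhrf1 on chromosome 17 (56303337 to 56323486, plus strand) and Ezh2 on chromosome 6 (47530274 to 47595270, minus strand) in build GRCm38.p6. RefSeq windows of 300 bases, 250 before and 50 after each start, were searched on both strands for the E2F-type words TTTCCCGC, TTTCGCGC, TTTGCCGC and TTTGGCGC. E2F factors are known to drive genes of the S phase of the cell cycle. All 9 members had a window, 14 in all, and 3 of these held a word, against 2.26% of all 32851 windows in the table. The 4 matches, none overlapping another, are shown with their flanks on the gene's strand and the word in capitals.
Dnmt1, start number 3, chr9:20952824-20952853, minus strand: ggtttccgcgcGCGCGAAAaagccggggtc
Dnmt1, start number 3, chr9:20952574-20952601, minus strand: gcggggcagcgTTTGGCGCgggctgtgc
Uhrf1, start number 2, chr17:56304117-56304146, plus strand: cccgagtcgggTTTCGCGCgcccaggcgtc
Ezh2, chr6:47595009-47595038, minus strand: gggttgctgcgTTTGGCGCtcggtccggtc
The first base of the word stood at -219 and 34 for Dnmt1, at -185 for Uhrf1 and at 4 for Ezh2, counted from the start site. The 3 windows had 64.3% to 69.7% G and C and 31 to 33 CpG pairs, above the medians of 52.7% and 7 over all windows. Each word itself holds a CpG pair, and the share among windows of like content was not taken. The 2.26% is therefore given as a description only. No word was found in the windows of Dnmt3a, Dnmt3b, Tet1, Tet2, Tet3 or Ezh1, whose G and C content ranged from 59.3% to 82.3%. A match is a run of letters, and no binding was measured here.

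Between cDC and CDP, 9 of the 14 member probe sets tested were called, 3 higher and 6 lower in cDC, at an adjusted p under 0.05 by limma with Benjamini-Hochberg adjustment. Of all 17501 probe sets tested, 40.2% were called, 16.6% higher and 23.7% lower, so a call as such was common in this comparison. The median member difference was -0.34, against -0.10 over all tested. The 10 member probe sets not tested were not above 5 on at least 2 arrays. Dnmt1 was lower in cDC by all 3 probe sets. The difference was -1.52 log2 units (SE 0.25, adjusted p = 0.00423) for 1435122_x_at, a 2.87-fold decrease, -1.40 (adjusted p = 0.0121, lost without CDP replicate 2) for 1422946_a_at, and -1.70 (adjusted p = 0.00375) for 1447877_x_at. Uhrf1 fell by 1.58 log2 units with 1415810_at (SE 0.44, adjusted p = 0.0292), and its second probe set showed -1.45 without passing the test (adjusted p = 0.0782). Ezh2 fell by 0.61 (SE 0.19, adjusted p = 0.0396). Without CDP replicate 2 only 3 member probe sets were called, and without cDC replicate 2 only 5. The Ezh2 call was lost when any 1 of the 4 arrays was left out. That of Uhrf1 1415810_at was lost without CDP replicate 1, CDP replicate 2 or cDC replicate 2. With no filter on low values 3 member probe sets were called.

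Between pDC and CDP, 10 of 14 were called, 2 higher and 8 lower in pDC, where 48.2% of all probe sets tested were called, 21.9% higher and 26.4% lower. The median member difference was -1.49, against -0.04 over all tested. The Dnmt1 differences were -2.55 (SE 0.25, adjusted p = 4.34e-04), a 5.86-fold decrease, -1.92 and -2.77 log2 units. Uhrf1 fell by 2.60 (SE 0.44, adjusted p = 0.00356) and 2.34 (adjusted p = 0.013), and Ezh2 fell by 1.29 (SE 0.19, adjusted p = 0.00193), a 2.45-fold decrease. All 3 Dnmt1 calls, that of Uhrf1 1415810_at and that of Ezh2 held when each array of the comparison was left out in turn. Counting 1 probe set per gene left 5 genes called.

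The test of cDC against pDC itself called 4 of 14 member probe sets, all higher in cDC, where 20.8% of all probe sets were called and 9.79% were called higher in cDC. Dnmt1 was higher in cDC by 1.03 (SE 0.25, adjusted p = 0.0278) and 1.07 log2 units (adjusted p = 0.0314) with 1435122_x_at and 1447877_x_at, and Ezh2 by 0.68 (adjusted p = 0.0455). Each of these 3 calls was lost when any 1 of the 4 arrays was left out, which gave 1 or 2 called probe sets, and none was called without the filter on low values. The Uhrf1 difference of 1.02 did not pass the test (adjusted p = 0.163). Between CDP and MPP no member probe set of 14 was called by limma, none had an unadjusted p under 0.05, and 4.92% of all probe sets were called.

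**Figure D2:**
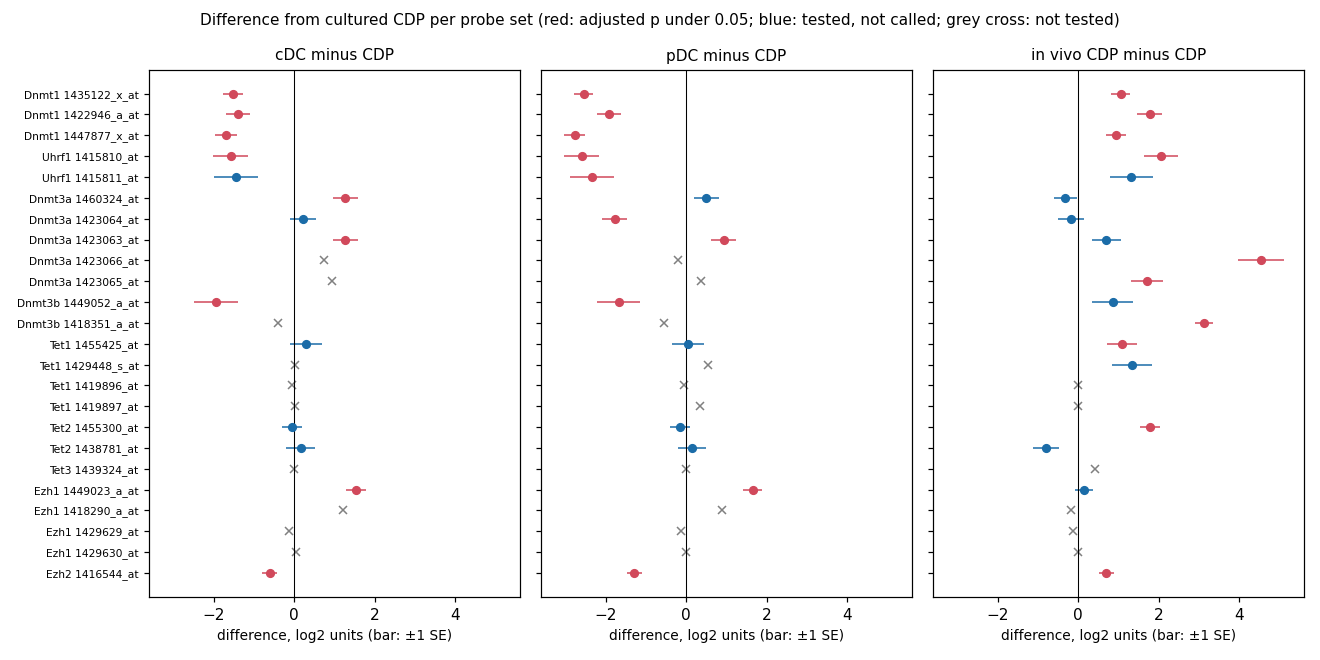
Difference in log2 units (x axis) of cDC, pDC and in vivo CDP from cultured CDP for each of the 24 probe sets (y axis), with bars of 1 SE from limma; red points had an adjusted p under 0.05, blue points were tested and not called, and grey crosses were not tested. Dnmt1 and Uhrf1 lie left of 0 in both dendritic cell panels and right of 0 in the in vivo panel, where the difference of Dnmt3a 1423066_at is 4.54.

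Genes of DNA replication moved in the same comparisons. Of 24 listed genes 23 were measured, and 21 of these were lower in cDC and 21 lower in pDC than in CDP, with median differences of -1.43 and -2.46 against -0.10 and -0.04 over all probe sets tested. Of all probe sets tested, 23.7% were called lower in cDC and 26.4% in pDC. In cDC against pDC, 14 of the 23 were higher in cDC and none lower, where 9.79% of all were called higher. Gins1, a subunit of the replicative helicase, fell by 2.11 in cDC and 3.61 in pDC, and Cdc6, which loads the helicase, fell by 2.00 in cDC. The mean over these 23 genes was 10.94 and 11.19 on the CDP arrays, 10.80 and 11.08 for MPP, 9.80 and 9.46 for cDC, and 8.55 and 8.76 for pDC. Their part in the levels of Dnmt1, Uhrf1 and Ezh2 was not tested. Neutrophil markers also moved: all 5 were above 5 in MPP and under 5 in cDC and pDC, with a summed level of 60.7 to 64.0 for MPP, 33.7 to 42.8 for CDP, 14.0 to 14.8 for cDC and 13.4 to 13.6 for pDC. The macrophage list, 4 genes, summed to 21.2 to 24.7 for CDP and 29.3 to 30.9 for cDC, and differed between the pDC arrays, with 20.3 on replicate 1 and 29.1 on replicate 2; C1qa stayed under 5 in all of them. On the pDC arrays Adgre1 read 4.32 and 8.86, and Mrc1 2.78 and 7.08. Of the mast cell list, all 4 were above 5 in MPP only, summing to 38.2 to 38.5, against 15.6 to 16.3 in CDP. Their part in the results was not tested.

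**Figure D3:**
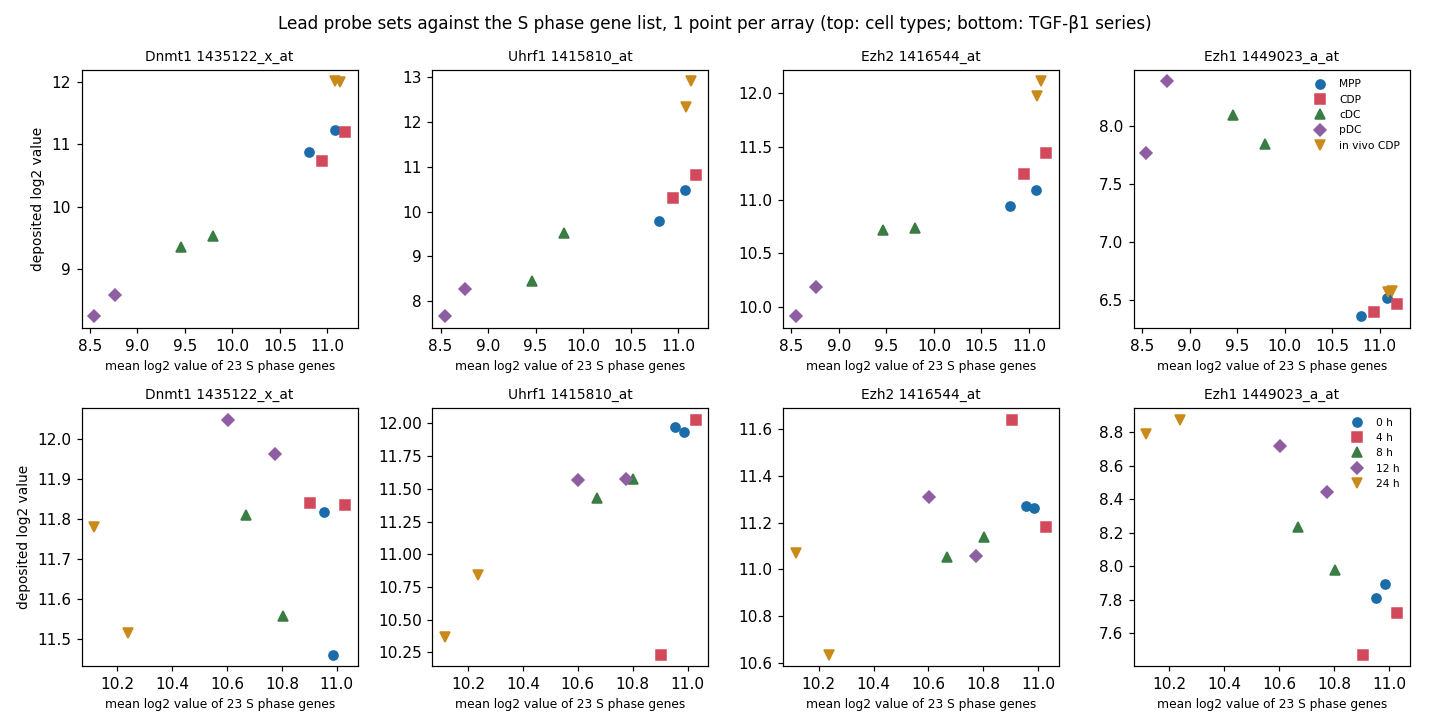
Deposited log2 value (y axis) of the Dnmt1, Uhrf1, Ezh2 and Ezh1 probe sets with the highest mean against the mean log2 value of 23 S phase genes (x axis), 1 point per array, with the cell types above and the TGF-β1 series below. Among the cell types, pDC and cDC hold the low end for Dnmt1, Uhrf1 and Ezh2 and the high end for Ezh1, and in vivo CDP lie above cultured CDP at similar values on the x axis; axes differ between panels.

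Ezh1 ran the other way from Ezh2. Its main probe set, 1449023_a_at, read 6.36 and 6.52 for MPP, 6.39 and 6.47 for CDP, and 6.58 and 6.57 for in vivo CDP, against 7.85 and 8.10 for cDC and 7.77 and 8.39 for pDC. Both dendritic cell groups lay above the progenitors with no overlap, and overlapped with each other. The difference from CDP was 1.54 in cDC (SE 0.25, adjusted p = 0.00394), a 2.92-fold increase, and 1.65 in pDC (SE 0.25, adjusted p = 0.00214), a 3.14-fold increase, and both calls held when each array was left out. Probe set 1418290_a_at, built on the same transcript, stayed under 5 on these 10 arrays, with 2.94 and 2.89 for CDP, 4.03 and 4.23 for cDC, and 4.51 and 3.12 for pDC. The remaining Ezh1 probe sets, 1429629_at and 1429630_at, lay between 2.25 and 2.53 on these arrays.

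The de novo enzymes differed from each other. Dnmt3b 1449052_a_at was highest in MPP, with 7.59 and 7.79, followed by CDP with 6.15 and 6.94, pDC with 5.42 and 4.31, and cDC with 5.26 and 3.95. Both dendritic cell groups lay under both CDP arrays, and each had 1 array under 5. The differences were -1.94 in cDC (SE 0.54, adjusted p = 0.0295) and -1.68 in pDC (SE 0.54, adjusted p = 0.0406). The cDC call was lost without CDP replicate 2 or cDC replicate 2, and the pDC call without CDP replicate 1, CDP replicate 2 or pDC replicate 2. The second probe set, 1418351_a_at, was under 5 on all 8 arrays, from 4.38 and 4.52 in MPP to 2.83 and 2.87 in pDC.

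Dnmt3a has 5 probe sets, all built on the same expressed sequence, and they did not move as 1. Probe set 1460324_at read 5.91 and 6.36 for MPP, 6.49 and 6.49 for CDP, 7.82 and 7.69 for cDC, and 6.58 and 7.41 for pDC. It was highest in cDC, by 1.27 log2 units over CDP (SE 0.30, adjusted p = 0.0172), and the pDC difference of 0.50 did not pass the test (adjusted p = 0.213). Probe set 1423063_at read 6.28 and 6.00 for CDP, 7.75 and 7.07 for cDC, and 6.85 and 7.30 for pDC, with differences of 1.27 in cDC (adjusted p = 0.0179) and 0.93 in pDC (adjusted p = 0.0437). By contrast, 1423064_at read 6.67 and 7.43 for CDP, 7.20 and 7.32 for cDC, and 5.42 and 5.12 for pDC. It fell by 1.78 log2 units in pDC (SE 0.32, adjusted p = 0.00457) and was 1.99 higher in cDC than in pDC (SE 0.32, adjusted p = 0.00603), and both calls held when each array was left out. In pDC, then, 1 Dnmt3a probe set was called higher and another lower than in CDP. The rises were less firm: the cDC call of 1460324_at and the pDC call of 1423063_at were each lost when any 1 of the 4 arrays was left out, and the cDC call of 1423063_at without CDP replicate 2 or cDC replicate 1. Probe sets 1423066_at and 1423065_at were under 5 on all MPP, CDP and pDC arrays, and on cDC they gave 5.88 and 3.97, and 5.31 and 4.77.

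The Tet genes were not called between these 4 cell types. Tet2 1455300_at read 8.80 and 8.87 for MPP, 8.61 and 8.83 for CDP, 8.94 and 8.38 for cDC, and 8.39 and 8.73 for pDC, with all groups but MPP and pDC overlapping. Its difference from CDP was -0.06 in cDC, with a 95% confidence interval of -0.65 to 0.53, and -0.16 in pDC, with an interval of -0.75 to 0.43. Tet2 1438781_at gave 8.80 and 9.32 in CDP and 8.83 and 9.61 in cDC. Tet1 1455425_at ranged from 5.48 to 6.83 over the 8 arrays, with a difference of 0.30 in cDC (95% confidence interval -0.65 to 1.25). The other 3 Tet1 probe sets lay between 2.25 and 5.12, and Tet3 1439324_at between 2.32 and 2.34, next to the floor.

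In vivo CDP read higher than cultured CDP for every Dnmt1, Uhrf1 and Ezh2 probe set, in a comparison where culture, kit, RNA amount and extraction all differed. Of the members, only Dnmt1 and Ezh2 were called by all of their probe sets. The fit held 18 member probe sets and called 10, all higher in vivo, but the filter on low values in part fixed 3 of these calls. In 4 of the 18 the values above 5 came from in vivo arrays and at most 1 cDC or pDC array, so that the filter on low values in part fixed their difference, and no test is given for them. These were Dnmt3a 1423066_at and 1423065_at, Dnmt3b 1418351_a_at and Tet1 1429448_s_at, of which 3 were among the 10 called. Of the other 14 probe sets 7 were called, where 42.8% of all 18027 probe sets tested were called and 23.1% were called higher. Over all 18, leaving out in vivo CDP replicate 1 gave 5 called probe sets, leaving out replicate 2 gave 6, removing the filter gave 6, and 1 probe set per gene gave 5.

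Dnmt1 1435122_x_at gave 12.01 on both in vivo arrays, above all 8 arrays of the other cell types, and exceeded CDP by 1.05 log2 units (SE 0.23, adjusted p = 0.00816). The other Dnmt1 probe sets were higher by 1.77 (adjusted p = 0.00271) and 0.94 (adjusted p = 0.018). Uhrf1 1415810_at gave 12.91 and 12.34 in vivo and was higher by 2.06 (SE 0.43, adjusted p = 0.00672), a 4.16-fold difference. That call was lost without in vivo replicate 1, and those of Dnmt1 1447877_x_at and of Ezh2 without CDP replicate 1 or either in vivo array. Uhrf1 1415811_at, with 9.42 and 8.67, showed a difference of 1.32 that did not pass the test (adjusted p = 0.0828). Ezh2 gave 12.11 and 11.97 and was higher by 0.70 (SE 0.18, adjusted p = 0.0161), whereas Ezh1 1449023_a_at differed by 0.14 (adjusted p = 0.648). Of the 23 S phase genes 2 were higher in vivo and 4 lower, where 42.8% of all probe sets tested were called. The mean of the 23 genes was 11.13 and 11.08 in vivo against 10.94 and 11.19 in cultured CDP. The neutrophil list summed to 48.2 to 54.9 in vivo against 33.7 to 42.8 in CDP, with all 5 genes above 5 in vivo and Elane and Ltf under 5 in CDP. Its part in the in vivo result was not tested.

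Dnmt3a differed from probe set to probe set. Probe set 1423066_at gave 4.21 and 4.16 in cultured CDP and 8.19 and 9.26 in vivo, a difference of 4.54 log2 units, or at least 13.2-fold when the low group is set at 5. Probe set 1423065_at gave 4.10 and 4.12, then 5.17 and 6.48, a difference of 1.71. The other 3 Dnmt3a probe sets were not called. For 1460324_at the in vivo arrays gave 6.02 and 6.31, under both CDP arrays, with a difference of -0.32 (adjusted p = 0.41). For 1423063_at they gave 6.39 and 7.29, a difference of 0.70 (adjusted p = 0.159). The 5 differences thus included both signs. As a rank within its own array, 1423066_at stood at the percentiles 61.8 and 61.7 in cultured CDP with the one-cycle kit, at 83.1 and 89 in in vivo CDP, and at 86.5 and 86.5 in the untreated CDP of the TGF-β1 series, which were cultured cells labelled with the 3′ IVT kit. Whether both parts of the table were normalized together is not given in the sources used, and these ranks are given as a description only. The part of the kit in the in vivo difference was not tested. Probe set 1460324_at stayed within 70.2 and 73.5 in these 3 groups. In the same order of groups, Uhrf1 1415810_at stood at 93.6 and 95.3, 98.9 and 98.3, and 97.8 and 97.9. Dnmt1 1422946_a_at stood at 92.8 and 92.7, 97.1 and 97.8, and 97.4 and 97.7. Dnmt1 1435122_x_at stood at 95 and 96.3, 97.8 and 97.8, and 96.8 and 97.6. Ezh2 stood at 96.4 and 96.9, 97.9 and 97.7, and 96.3 and 96.3. For these genes, too, the part of the kit was not tested.

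**Figure D4:**
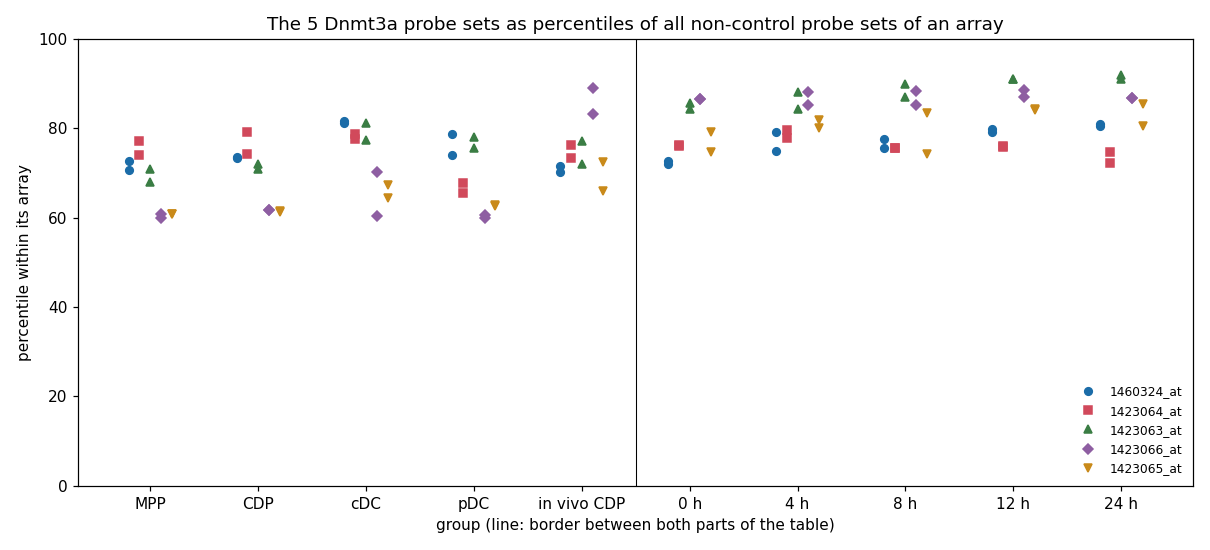
Percentile of each of the 5 Dnmt3a probe sets among all non-control probe sets of its own array (y axis), by group (x axis), 1 point per array; the vertical line separates the 10 arrays with a shared floor from the TGF-β1 series. Probe set 1423066_at lies near 60 in MPP, CDP and pDC and between 83.1 and 89 in in vivo CDP and in all TGF-β1 groups.

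Dnmt3b 1418351_a_at gave 3.16 and 3.64 in cultured CDP and 6.72 and 6.32 in vivo, a difference of 3.12 or at least 2.87-fold against 5, and ranked at the percentiles 56.5 and 59.1, then 74.1 and 71.6, against 75.5 and 76.6 at 0 h of the TGF-β1 series. The main Dnmt3b probe set, with 7.65 and 7.16 in vivo, was not called. The Tet2 probe sets disagreed: 1455300_at gave 10.68 and 10.32 in vivo and was higher by 1.78 (SE 0.25, adjusted p = 0.0012), a 3.44-fold difference, and 1438781_at gave 8.21 and 8.30, a difference of -0.80 that did not pass the test (adjusted p = 0.0823). Tet1 1455425_at, with 7.18 and 7.43 in vivo, was higher by 1.08 (adjusted p = 0.0475), a call lost without CDP replicate 2 or either in vivo array. Tet3 gave 2.32 and 3.18 in vivo and stayed under 5.

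Under TGF-β1 the probe sets called at 12 and 24 h belonged to Dnmt3a and Ezh1, and the share of members called at 24 h lay near that of all probe sets. No member probe set of the 21 tested was called by limma at 4 h or at 8 h, with 1 at an unadjusted p under 0.05 each time, and 0.278% and 0.677% of all 26606 probe sets tested were called. At 12 h 1 of 21 was called, against 2.94% of all. At 24 h 3 of 21 were called, all higher, against 14.2% of all probe sets and 7.77% called higher, with a median member difference of 0.48 against -0.01 over all tested. The F-test over all times called 1 member probe set, Ezh1 1449023_a_at (adjusted p = 0.0233), against 5.74% of all. Replicate numbers marked arrays that deviated together in this series, and with the number as a block 3 were called at 12 h and 7 at 24 h, where 7.32% and 23.2% of all were called. The blocked F-test called 4, against 13% of all.

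Dnmt3a 1460324_at gave 7.49 and 7.36 at 0 h, 8.13 and 7.72 at 4 h, 7.88 and 8.07 at 8 h, 8.28 and 8.37 at 12 h, and 8.46 and 8.44 at 24 h. Every treated array lay above both untreated ones. The difference was 0.89 at 12 h (SE 0.18, adjusted p = 0.0463) and 1.02 at 24 h (SE 0.18, adjusted p = 0.00984), a 2.03-fold increase. Probe set 1423063_at went from 8.95 and 9.12 to 9.91 and 9.96 at 12 h and 10.07 and 9.94 at 24 h, higher by 0.97 at 24 h (SE 0.24, adjusted p = 0.0325) and called at 12 h only with the block (adjusted p = 0.0393). Probe set 1423066_at, at 9.25 and 9.24 at 0 h, gave 9.23 and 9.25 at 24 h, a difference of -0.01 with a 95% confidence interval of -0.51 to 0.49. Probe set 1423064_at gave 7.94 and 7.89, then 7.71 and 7.44, a difference of -0.34 (adjusted p = 0.223). Probe set 1423065_at gave 7.76 and 8.26, then 9.05 and 8.44, a difference of 0.74 (adjusted p = 0.247).

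Ezh1 1449023_a_at gave 7.89 and 7.81 at 0 h, 7.47 and 7.72 at 4 h, 7.98 and 8.24 at 8 h, 8.72 and 8.44 at 12 h, and 8.79 and 8.88 at 24 h. Both 4 h arrays lay under and all later arrays above the untreated ones. The difference at 24 h was 0.98 (SE 0.18, adjusted p = 0.0108), a 1.98-fold increase, and at 12 h the call was made with the block (adjusted p = 0.0491). Tested against 4 h directly, the 24 h level was higher by 1.24 (SE 0.18, adjusted p = 0.0075), the only call among 21 member probe sets there, against 8.35% of all. Ezh1 1418290_a_at, at 5.54 and 5.68 at 0 h and 6.05 and 6.13 at 24 h, was called at 24 h with the block (adjusted p = 0.0403), and 1429629_at and 1429630_at stayed between 3.07 and 3.75. In rank, 1418290_a_at stood at the percentiles 53.3 and 55.2 of its arrays at 0 h and 59 and 60.3 at 24 h. Ezh2 gave 11.26 and 11.27 at 0 h and 11.07 and 10.63 at 24 h, a difference of -0.42 (SE 0.22, adjusted p = 0.275).

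**Figure D5:**
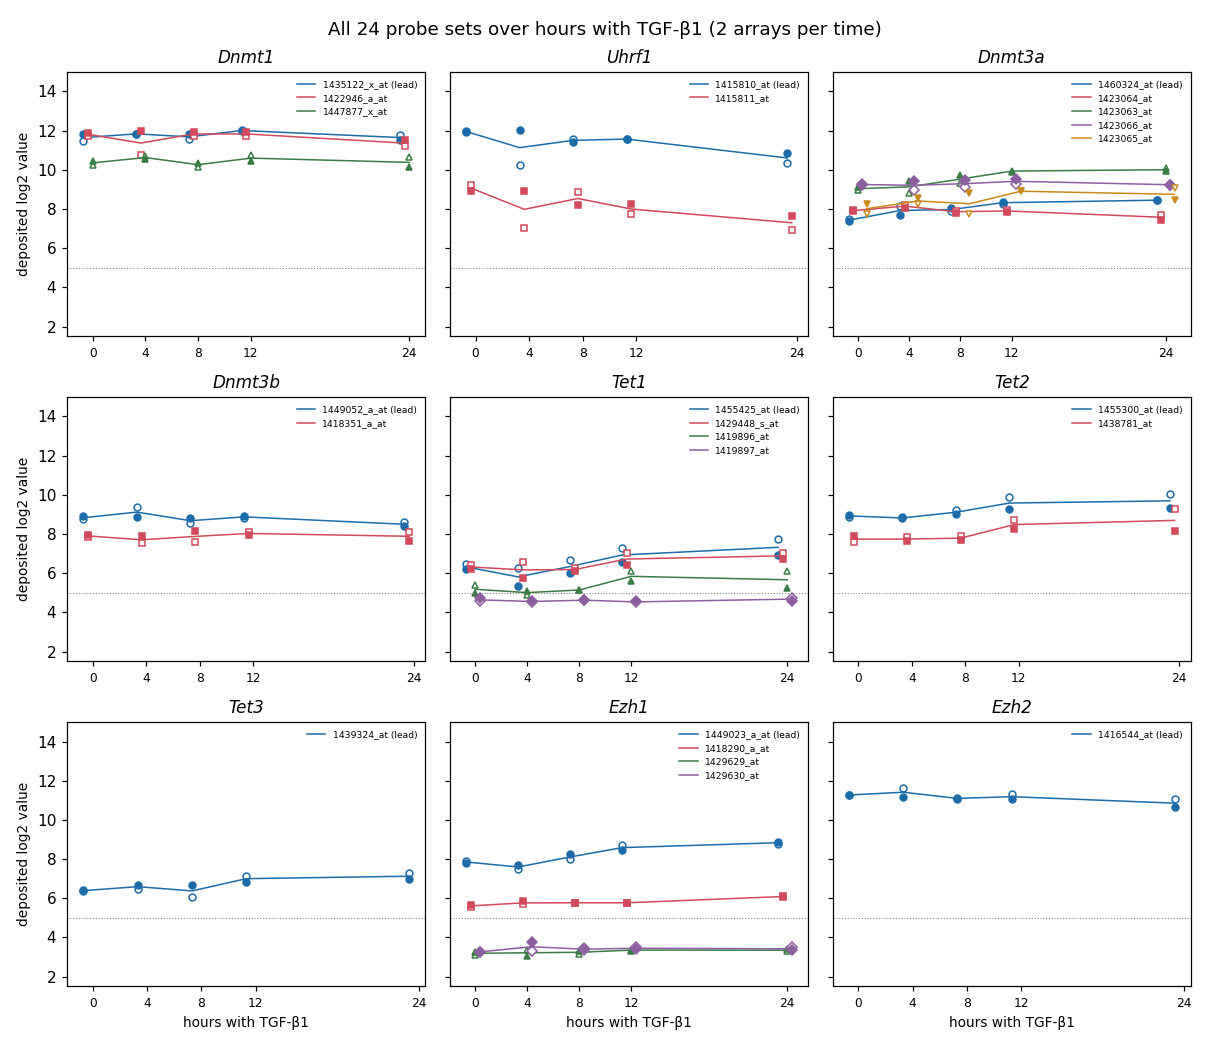
Deposited log2 value (y axis) of each of the 24 probe sets over hours with TGF-β1 (x axis, to scale), 1 panel per gene, with replicate 1 as an open and replicate 2 as a filled point and lines through the means of 2 arrays. Points are offset sideways for clarity; Dnmt3a 1460324_at and Ezh1 1449023_a_at lie highest at 24 h, and the open 4 h point of Uhrf1 lies apart from the filled one.

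Uhrf1 showed lower values at 24 h that depended on the fit. Probe set 1415810_at gave 11.93 and 11.98 at 0 h, 10.23 and 12.03 at 4 h, 11.58 and 11.43 at 8 h, 11.56 and 11.57 at 12 h, and 10.37 and 10.84 at 24 h. The 24 h arrays lay under all others except replicate 1 of 4 h, a library of low 5′ signal. The difference at 24 h was -1.35 (SE 0.49, adjusted p = 0.117; with the block 0.0584), and for 1415811_at -1.77 (SE 0.58, adjusted p = 0.0846; with the block 0.0483). Without the 3 arrays of low 5′ signal, 24 h is replicate 2 alone. The differences were then -1.11 and -1.43 for the Uhrf1 probe sets and -0.63 for Ezh2. With a lone array at 24 h, no test is given from that fit. At 4 h, leaving out replicate 2 gave 3 lower calls that rest on replicate 1 alone, namely both Uhrf1 probe sets and Dnmt1 1422946_a_at, which had 10.77 on that array and 11.96 on the other.

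Dnmt1 was not called at any time. Probe set 1435122_x_at gave 11.46 and 11.82 at 0 h and 11.78 and 11.52 at 24 h, and its difference at 24 h was 0.01 with a 95% confidence interval of -0.43 to 0.44. The other Dnmt1 probe sets differed by -0.45 (1422946_a_at) and 0.02 (1447877_x_at). Of the S phase genes, none of 23 was called at 4, 8 or 12 h, and 8 were lower at 24 h (13 with the block). Of all probe sets tested, 14.2% were called at 24 h in either direction, and 23.2% with the block. The mean of the 23 S phase genes went from 10.99 and 10.95 at 0 h to 10.12 and 10.24 at 24 h. Mcm2, a subunit of the replicative helicase, fell by 1.46 (adjusted p = 0.0341) and Cdc6 fell by 1.35 (adjusted p = 0.00727). The part of this list in the Uhrf1 values was not tested.

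Tet genes read higher at 24 h without passing the test in the fit without a block. Tet1 1455425_at gave 6.46 and 6.19 at 0 h and 7.73 and 6.91 at 24 h, a difference of 1.00 (SE 0.42, adjusted p = 0.171; with the block 0.00731). Tet2 1455300_at gave 8.89 and 8.96, then 10.06 and 9.33, a difference of 0.77 (adjusted p = 0.129; with the block 0.0456). Tet2 1438781_at gave 7.60 and 7.88, then 9.26 and 8.14, a difference of 0.96 (adjusted p = 0.121; with the block 0.0523). Tet3 1439324_at gave 6.37 and 6.41, then 7.27 and 6.98, a difference of 0.74 (adjusted p = 0.0855). In each case the higher 24 h value came from replicate 1, a library of low 5′ signal. Without the 3 such libraries, 24 h is replicate 2 alone. The differences were then 0.59 for Tet1 1455425_at, 0.40 for each of the 2 Tet2 probe sets and 0.59 for Tet3. Tet1 1429448_s_at and 1419896_at differed by 0.57 and 0.49 at 24 h without passing the test, and 1419897_at stayed between 4.51 and 4.76. Neither Dnmt3b probe set was called at any time, with 8.76 and 8.91 at 0 h and 8.60 and 8.40 at 24 h for 1449052_a_at and a 24 h difference of -0.02 for 1418351_a_at. The 3 calls at 24 h did not survive the loss of an untreated array: without either 0 h replicate none was called, and without replicate 1 of 24 h only 1. The 12 h call was lost without any 1 of the 4 arrays. During the same hours the cDC marker list went from a summed level of 52.5 to 54.9 at 0 h to 68.6 to 72.5 at 24 h, with Cd83 and Zbtb46 under 5 at 0 h and all 8 above 5 at 24 h, and the neutrophil list went from 37.4 to 38.2 down to 31.4 to 32.7. The macrophage list went from 25.8 to 26.0 down to 21.6 to 22.0. Their part in the results was not tested.

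The partners of EZH1 and EZH2 were described from a list of 9 other PRC2 subunits, of which 8 were tested among the cell types. In cDC 2 were higher and 3 lower than in CDP, and in pDC 1 was higher and 5 lower, with median differences of -0.50 and -0.82. Of all probe sets tested, 40.2% were called in cDC and 48.2% in pDC. Jarid2, an accessory subunit that recruits the complex, was higher in cDC than in CDP by 1.19 (SE 0.21, adjusted p = 0.00598) and than in pDC by 0.75 (adjusted p = 0.0498). Rbbp7 and Rbbp4, histone-binding subunits, fell by 0.83 and fell by 0.75 in cDC, and Rbbp7 fell by 1.41 in pDC (adjusted p = 0.00249). Aebp2, a cofactor, fell by 1.24 in pDC (adjusted p = 0.0024). In vivo, 1 was higher and 3 lower than in cultured CDP, while both Ezh2 and Dnmt1 were higher. Of all probe sets tested in vivo, 42.8% were called. Phf1 was among the genes counted as higher in cDC, in pDC and in vivo. Its values above 5 came only from replicate 2 of cDC and pDC and replicate 1 in vivo. The filter on low values thus in part fixed its differences. Under TGF-β1 none of the 9 was called at any time without the block, and with it 1 was higher and 1 lower at 24 h. With the block 23.2% of all probe sets tested were called at 24 h.

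Polycomb repressive complex 1, which binds the mark made by PRC2 and ubiquitinates histone H2A, was represented by 18 of 20 listed genes. In cDC 1 of 12 tested was higher and 5 lower than in CDP, and in pDC 2 were higher and 6 lower. Calls were common there, with 40.2% of all probe sets tested called in cDC and 48.2% in pDC. Pcgf6, a subunit of a variant complex, fell by 1.84 in cDC (adjusted p = 0.00165), fell by 2.27 in pDC (adjusted p = 4.94e-04) and fell by 1.35 at 24 h of TGF-β1 (SE 0.18, adjusted p = 0.00319). Bmi1, a core subunit known for its role in stem cell self-renewal, fell by 1.46 in cDC (adjusted p = 0.00174), and the difference of in vivo from cultured CDP was -1.61 (adjusted p = 4.98e-04). Cbx2, a subunit that binds the mark, read 4.385 and 4.865 in MPP, under 5, and 5.917 and 6.427 in CDP. Among the 8 one-cycle arrays only those of CDP and cDC replicate 1 were above 5. The filter on low values thus in part fixed this difference, and no test is given for it. In vivo 4 were higher and 4 lower of 14 tested, where 42.8% of all probe sets tested were called. Scmh1 and Ring1, among the higher ones, were above 5 only on the in vivo arrays among the cell types. The filter on low values thus in part fixed their differences. At 24 h of TGF-β1 2 of 18 were lower, where 14.2% of all were called. With the block 2 were higher and 2 lower, where 23.2% of all were called. Of the 5 genes that remove the histone marks of both complexes, none was called in cDC, and 2 were higher and 1 lower in pDC. The shares over all probe sets tested were again 40.2% and 48.2%. Kdm6a, a demethylase of the PRC2 mark, was higher in pDC by 0.74 (adjusted p = 0.0293) and Asxl2 by 0.53 (adjusted p = 0.046), and Asxl1 fell by 0.70 (adjusted p = 0.0464). The ASXL proteins are cofactors of the H2A deubiquitinase.

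Of the methyl-CpG readers 8 of 9 were measured. Zbtb4, a zinc finger protein that binds methylated DNA, had a mean of 3.49 in CDP, under 5 on both arrays, 6.49 in cDC and 6.12 in pDC. Among the 8 one-cycle arrays only those of cDC and pDC were above 5. The filter on low values thus in part fixed these differences, and no test is given for them. Mbd1 fell by 0.82 in cDC (adjusted p = 0.0112). In vivo, Mbd3 was higher by 1.77 and Uhrf2, the relative of Uhrf1, by 1.40 (adjusted p = 0.00201). At 24 h of TGF-β1, 1 of 8 was called, Mbd1, higher by 0.59 (adjusted p = 0.0339), and with the block 2 were higher and 1 lower. Of all probe sets tested, 14.2% were called at 24 h, and 23.2% with the block.

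Of 16 genes for methylation partners and removal of oxidised bases, 15 were measured and 12 or 13 tested. In cDC 1 was higher and 4 lower, and in pDC 4 were higher and 5 lower, where 40.2% and 48.2% of all were called. Hells, a chromatin remodeller needed for DNA methylation, fell by 1.68 in cDC (adjusted p = 0.009) and fell by 3.22 in pDC (adjusted p = 5.70e-04), and was 1.54 higher in cDC than in pDC (adjusted p = 0.02). Cxxc5, a CpG-binding protein known to interact with TET2, was higher in pDC than in CDP by 3.11 (SE 0.33, adjusted p = 6.18e-04) and higher after TGF-β1 by 1.38 at 8 h, 1.84 at 12 h and 2.40 at 24 h (SE 0.20, adjusted p = 4.34e-04). Without the block no gene of this list was called at 4 h, where 0.278% of all probe sets tested were called. With the block 1 was higher and 1 lower at 4 h, and the share over all probe sets is not given for that fit. Of the Gadd45 proteins, known for DNA repair and proposed roles in demethylation, Gadd45b was higher by 2.07 at 24 h (adjusted p = 0.00285) and Gadd45a fell by 2.45 (adjusted p = 0.00408), from a mean of 6.85 to 4.40, which is under 5. At 24 h 3 genes of the list were higher and 2 lower, where 14.2% of all probe sets tested were called.

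Genes whose levels ran most like those of the members were ranked by Pearson correlation over the 10 arrays of the 5 cell types, among 9150 genes. These values are descriptions: the arrays form 5 pairs that share their group, and in vivo CDP share kit and RNA amount. Nearest to Dnmt1 were Dut and Mcm7 (both 0.995), Ctc1, Diaph3 and Rcc1, and nearest to Uhrf1 were Tacc3 (0.99), Zcchc8, Chtf18, Slbp and Stmn1. Ezh2 lay nearest to E2f7 (0.987), Ywhaz, Lig1, Tacc3 and Cenpo. The S phase list holds Mcm7, Slbp and Lig1 of these. Ezh1 lay nearest to Paxbp1 (0.982), Rlf, Cadm1, Cd200 and Clk1, and Dnmt3a 1460324_at to Dennd3 (0.963), Irf4, Pot1b, Ms4a7 and Gpr34. Among the members, Uhrf1 and Ezh2 correlated at 0.978, Dnmt1 and Ezh2 at 0.955, and Dnmt1 and Uhrf1 at 0.948, and Ezh1 and Ezh2 at -0.738. Over the 10 TGF-β1 arrays the same pairs gave -0.027, 0.368, -0.004 and -0.697.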

How the data were processed

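The 20 arrays were analysed from the authors' deposited log2 values per probe set. The submitters' processing notes name GCRMA, a background adjustment and normalization method, and the labels name Bioconductor. Versions, and why 10 arrays share a floor, are not given in the sources used. Of 45101 probe sets 64 controls were left out. A platform annotation of 2016 gave 34945 of the rest 1 symbol, 932 several and 9160 none, and no member probe set is shared with another symbol. Probe sets above 5 on at least 2 arrays of a fit were tested two-sided in R 4.3.3 with the lmFit and eBayes functions of limma 3.58.1 and Benjamini-Hochberg adjustment over all probe sets tested, at a threshold of 0.05. Separate fits covered the 8 one-cycle arrays (17501 tested), these with in vivo CDP (18027) and the TGF-β1 series (26606), with no covariate. The code was tested on simulated data. Folds are unlogged differences, taken against 5 for a low group with neither array above it. The number of arrays limits the precision.

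Every member probe set is accounted for, and those first named for a gene have the highest mean over the 10 cell type arrays. List genes are represented by the same rule, and at most 3 called genes per list, direction and comparison are named. The members and lists were chosen with earlier results of these data known. Replicate numbers were taken to pair the TGF-β1 arrays, since all correlations of deviations from the group means were above 0.1 there (0.147 to 0.833). They were -0.024 to 0.577 among the other arrays, where the numbers were not used. Replicate 1 of 4, 12 and 24 h has low 5′ signal, which the block may take up as well. Promoter sequences are from RefSeq. Alternatives were other scalings, filters, fits and the removal of arrays.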

Additional observations from a re-analysis of the deposited data

Results flagged for a closer look

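Ezh1 1449023_a_at differed between its effects at 24 h and at 4 h of TGF-β1, each taken against 0 h. The effect was 0.98 log2 units at 24 h, and the difference between both effects was 1.24 (SE 0.18, limma adjusted p = 0.0075), with 7.47 and 7.72 on the 4 h arrays and 8.79 and 8.88 on the 24 h arrays. The shared untreated arrays drop out of this test, which is that of 24 h against 4 h, where 8.35% of all probe sets tested were called. No other of the 21 member probe sets tested was called in it.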

How the results depend on the processing

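Counts of member probe sets called moved as follows. With the replicate block 3 were called at 12 h, 7 at 24 h and 4 over all TGF-β1 times. Without the filter on low values 3 were called for cDC against CDP, 0 for cDC against pDC and 6 for in vivo CDP. With 1 probe set per gene, 5 were called for pDC against CDP, 2 for cDC against pDC, 5 for in vivo CDP and 0 at 12 h. Quantile normalization, a limit of 7 and eBayes with trend and robust on gave 0 at 12 h. Removal of the 3 arrays of low 5′ signal left a lone array at 24 h, and no count is given for it. With 1 array left out in turn, counts ranged from 0 to 0 for CDP against MPP, 3 to 7 for cDC and 7 to 9 for pDC against CDP, 1 to 2 for cDC against pDC, 5 to 9 for in vivo CDP, 0 to 3 at 4 h, 0 to 0 at 8 h and at 12 h, 0 to 2 at 24 h, and 0 to 5 over all times. A lone array was assumed to vary like the other groups. The cause of these moves was not tested.

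No called member difference changed sign under any alternative run. Leaving out arrays ended 62 calls of single probe sets and made 7. The block, added among the cell types although the numbers there are not known to pair arrays, ended the in vivo call of Tet1 1455425_at (adjusted p = 0.0571) and made one of Tet2 1438781_at (adjusted p = 0.0202). Median-centring and quantile normalization kept the order pDC, cDC, CDP, MPP, in vivo CDP for Dnmt1 1435122_x_at. Low signal limits Tet3, 3 of the 4 Tet1 and 3 of the 4 Ezh1 probe sets on the cell type arrays.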
